A study of Sus scrofa with 36 samples.

Results

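The immediate early genes examined in the piglet cerebellum were FOS, FOSB, JUNB, EGR1, EGR2, EGR3, ARC, NR4A1, NR4A3 and IER2, taken as a list of 10 named genes from the 31907 gene identifiers of the count tables. All 10 were found by symbol. 8 of them had enough counts to be tested together with 15356 genes in all, and EGR2 and EGR3 did not. The 8 were counted at 9 read pairs or more in each of the 33 libraries used, so none of them passed the filter through a single group.

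The study combined 2 diets with 2 birth weights. Male and female crossbred piglets born at term (Danish landrace × Yorkshire × Duroc), from several litters, were either of normal birth weight (NBW) or intrauterine growth restricted (IUGR), and from 3 days of age they were fed for 3 weeks a formula whose fat came from vegetable oil (VEG) or from bovine milk (MILK). The piglets of all groups took part in tests of behaviour, cognition and movement, were sedated with a mixture that held ketamine and xylazine, and were killed with intracardiac pentobarbital on 1 of a pair of randomised days. RNA was taken from snap-frozen cerebellum, and each piglet gave 1 library. The labels give neither the day of death nor the litter of a piglet, so neither could be entered in a model.

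Each of the 4 groups (NBW and IUGR piglets on VEG, NBW and IUGR piglets on MILK) held 9 piglets. In 3 libraries the share of read pairs not assigned to a gene stood apart from the rest of the group, and they were left out: piglet 202 of VEG-NBW, piglet 210 of VEG-IUGR and piglet 213 of MILK-NBW. The 33 libraries kept (8, 8, 8 and 9 piglets, 16 females and 17 males) had 15516541 to 23027502 read pairs counted on genes, with a median of 18025540. Markers of the cerebellum were high in all of them: the summed level of 8 granule neuron markers was 3623 to 5624 CPM and that of 7 Purkinje cell markers 2387 to 5034 CPM. CPM are read pairs on a gene per 1000000 on all genes, after scaling of the libraries to each other (TMM).

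Immediate early genes are switched on within minutes of a stimulus by factors already present in the cell, before any new protein is made. In neurons the usual stimulus is synaptic activity with entry of calcium, which acts through CREB, SRF and MEF2, and the transcripts last only a short time. FOS, FOSB and JUNB encode subunits of the AP-1 transcription factor, EGR1, EGR2 and EGR3 encode zinc finger transcription factors, NR4A1 and NR4A3 encode orphan nuclear receptors, ARC encodes a protein that regulates AMPA receptors at synapses, and IER2 encodes a small nuclear protein. Their transcripts are widely used as a record of recent cell activity. In whole tissue, a change in the number of cells that express a gene and a change in RNA per cell cannot be told apart.

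The members lie on 7 chromosomes of the Sscrofa11.1 assembly in the RefSeq annotation. FOS is on chromosome 7 (98449508 to 98451971), FOSB on chromosome 6 (51836780 to 51844531), NR4A1 on chromosome 5 (17403088 to 17407918) and NR4A3 on chromosome 1 (241569867 to 241611735). ARC is on chromosome 4 (1517986 to 1521403), and EGR2 (66280665 to 66291308) and EGR3 (6943184 to 6948507) are both on chromosome 14. Chromosome 2 holds IER2 (65909638 to 65912491), JUNB (66214086 to 66219435) and EGR1 (140440829 to 140445302), with 302 kilobases between IER2 and JUNB. RefSeq lists NR4A1 of this assembly as a pseudogene and the other 9 as protein coding. EGR2 was the 1 member overlapped by another RefSeq gene, ADO, and since the strand setting of the counting is not given in the sources used here, its few counts may hold reads of that gene.

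FOS differed widely between piglets of the same group. It ran from 8.65 over a median of 24.4 to 45.1 CPM in VEG-NBW, from 9.02 over 22.4 to 44.3 CPM in VEG-IUGR, from 8.16 over 12.3 to 56.3 CPM in MILK-NBW and from 10.7 over 23.1 to 53.1 CPM in MILK-IUGR. The 4 groups overlapped over nearly their whole range, and both the lowest piglet (212) and the highest piglet (224) of all 33 were in MILK-NBW, a 6.90-fold difference. The lowest library still held 150 read pairs on FOS.

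FOSB, the paralogue of FOS, was measured with 10 to 71 read pairs per library. Its lowest, median and highest values were 1.02, 2.10 and 2.67 CPM in VEG-NBW, 0.756, 1.31 and 2.61 CPM in VEG-IUGR, 0.568, 1.61 and 3.85 CPM in MILK-NBW and 0.793, 1.57 and 2.98 CPM in MILK-IUGR. The groups overlapped, and piglet 224 was again the highest.

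JUNB, the dimer partner of FOS and FOSB, had a narrower range. It was 12.8 to 24.8 CPM (median 21.1) in VEG-NBW, 15.1 to 33.5 CPM (median 20.2) in VEG-IUGR, 11.6 to 33.2 CPM (median 16.3) in MILK-NBW and 12.5 to 29.0 CPM (median 18.5) in MILK-IUGR. In MILK-NBW 7 piglets lay at or below 17.2 CPM and piglet 224 stood alone at 33.2 CPM.

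Of the nuclear receptors, NR4A1 had a lowest, median and highest level of 8.78, 25.4 and 42.9 CPM in VEG-NBW, 11.3, 20.9 and 50.3 CPM in VEG-IUGR, 10.9, 16.7 and 59.2 CPM in MILK-NBW and 13.3, 26.03 and 55.6 CPM in MILK-IUGR. NR4A3 spanned the widest range of the 8 tested members, 7.63-fold from 5.56 to 42.4 CPM. Its lowest, median and highest levels were 6.32, 16.8 and 40.5 CPM in VEG-NBW, 5.68, 17.6 and 36.6 CPM in VEG-IUGR, 5.56, 14.5 and 30.02 CPM in MILK-NBW and 7.94, 16.8 and 42.4 CPM in MILK-IUGR. For both receptors all 4 groups overlapped.

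EGR1 varied less than FOS. It was 10.4 to 29.7 CPM (median 14.8) in VEG-NBW, 9.94 to 20.4 CPM (median 13.3) in VEG-IUGR, 7.83 to 20.3 CPM (median 12.8) in MILK-NBW and 8.11 to 18.3 CPM (median 12.1) in MILK-IUGR. The highest value belonged to piglet 222 of VEG-NBW, which was not among the 8 highest of the 33 for FOS, FOSB, JUNB, NR4A1, NR4A3 or IER2.

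ARC was low, with 9 to 56 read pairs per library. It was 0.540 to 2.66 CPM (median 0.934) in VEG-NBW, 0.490 to 2.05 CPM (median 1.35) in VEG-IUGR, 0.774 to 2.44 CPM (median 1.21) in MILK-NBW and 0.854 to 2.60 CPM (median 1.53) in MILK-IUGR. IER2 was the steadiest member. It ran from 55.2 to 90.7 CPM (median 64.3) in VEG-NBW, from 55.2 to 80.3 CPM (median 68.1) in VEG-IUGR, from 53.9 to 80.4 CPM (median 65.2) in MILK-NBW and from 58.2 to 72.1 CPM (median 63.9) in MILK-IUGR, a 1.68-fold range over all piglets. The groups overlapped for both genes.

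**Figure D1:**
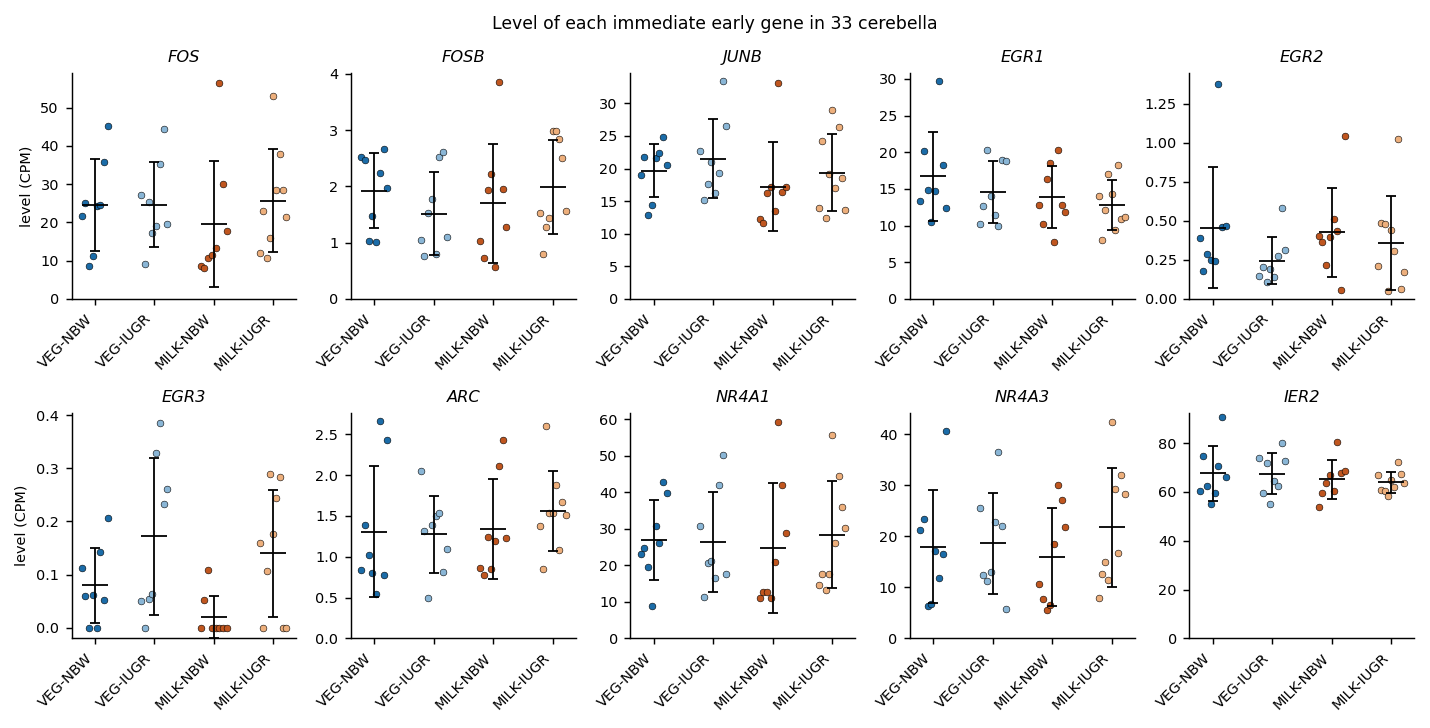
Level of each of the 10 immediate early genes (CPM, linear axes) in the 33 piglets by group, 1 point per piglet, with the mean and SD of each group (8, 8, 8 and 9 piglets). The groups overlap in every panel, and for FOS 1 MILK-NBW piglet at 56.3 CPM lies far above the other 7 of its group.

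EGR2 and EGR3 were close to the limit of detection. EGR2 was counted 1 to 29 times per library with a median of 5, and summed to 70 read pairs in VEG-NBW, 36 in VEG-IUGR, 60 in MILK-NBW and 59 in MILK-IUGR. EGR3 was counted 0 to 7 times and was at 0 in 12 of the 33 libraries, of which 2 were in VEG-NBW, 1 in VEG-IUGR, 6 in MILK-NBW and 3 in MILK-IUGR. Its summed counts were 12, 26, 3 and 24 read pairs in the same order.

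Without the filter on low counts, where 25708 genes were tested, the IUGR minus NBW difference on the log2 scale was 1.59 for EGR3 (95% interval 0.49 to 2.68, edgeR adjusted p = 0.952) and -0.66 for EGR2 (-1.30 to -0.02, edgeR adjusted p = 0.952). Both had an unadjusted p under 0.05, as had 4.08% of all genes in that fit, and neither passed after adjustment over all genes. The EGR3 difference rested on 65 read pairs in all. Between the MILK groups EGR3 was fitted 2.42 higher in IUGR than in NBW piglets (0.71 to 4.12, edgeR adjusted p = 0.774), against a group with 3 read pairs in 8 libraries. In that contrast 6.1% of all genes had an unadjusted p under 0.05 without the filter. The male minus female difference of EGR2 in that fit was -0.81 (-1.47 to -0.14, edgeR adjusted p = 0.922), with an unadjusted p under 0.05 as in 4.47% of genes.

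Whether diet changed the immediate early genes was asked in a model with birth weight and sex. None of the 8 tested members passed an adjusted p of 0.05 by edgeR's quasi-likelihood test, and the same was true of all genes (0% of 15356). No member had an unadjusted p under 0.05 either, against 4.26% of all genes, and DESeq2 also called none of the 8. The MILK minus VEG difference on the log2 scale was -0.16 for FOS (95% interval -0.71 to 0.39), 0.13 for FOSB (-0.36 to 0.62) and -0.18 for JUNB (-0.45 to 0.10). It was -0.03 for NR4A1 (-0.56 to 0.49), -0.02 for NR4A3 (-0.59 to 0.55), -0.22 for EGR1 (-0.51 to 0.06), 0.15 for ARC (-0.28 to 0.59) and -0.07 for IER2 (-0.19 to 0.05). The median of the 8 was -0.05, with 6 differences below 0 and 2 above (4 and 4 with all 36 libraries, 5 and 3 without the sex term). With the piglet number as a covariate, described further on, the diet differences shifted downward, with 7 below 0, 1 above and a median of -0.28. They were then -0.49 for FOS (-1.01 to 0.02), -0.42 for NR4A1 (-0.89 to 0.05), -0.34 for NR4A3 (-0.93 to 0.25) and -0.28 for JUNB (-0.56 to -0.001). JUNB alone had an unadjusted p under 0.05, and the edgeR adjusted p was 0.999 for each of these. Without the number the smallest adjusted p was 0.985.

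Birth weight was compared in the same model. 0 of the 8 tested members and 0% of all genes were called by edgeR, and DESeq2 called none of the 8. None of the 8 had an unadjusted p under 0.05, against 2.19% of genes. The IUGR minus NBW difference was 0.21 for FOS (-0.32 to 0.75), -0.06 for FOSB (-0.54 to 0.42), 0.15 for JUNB (-0.12 to 0.43) and 0.10 for NR4A1 (-0.41 to 0.61). It was 0.27 for NR4A3 (-0.29 to 0.83), -0.16 for EGR1 (-0.45 to 0.13), 0.10 for ARC (-0.34 to 0.53) and -0.01 for IER2 (-0.13 to 0.11). The intervals show the reach of the data: for FOS, NR4A1 and NR4A3 differences of up to 0.61 to 0.83 on the log2 scale in favour of IUGR lay within them, and for IER2 none above 0.11.

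The interaction, the diet difference in IUGR less that in NBW piglets, was positive for 7 of the 8 members (5 with the piglet number as a covariate) and passed the test for none (0% of all genes called by edgeR, 6.09% of genes and 0 members with an unadjusted p under 0.05, 0 members by DESeq2). It was 0.58 for FOSB (-0.37 to 1.53), 0.47 for FOS (-0.62 to 1.55), 0.46 for NR4A3 (-0.66 to 1.58), 0.30 for ARC (-0.60 to 1.19) and 0.29 for NR4A1 (-0.75 to 1.32). It was 0.08 for EGR1, 0.07 for JUNB and -0.02 for IER2. With the piglet number as a covariate it was 0.17 for FOS, 0.18 for NR4A3 and -0.06 for NR4A1. The smallest adjusted p was 0.823, for FOSB. Over all genes, 3.63% had an unadjusted p under 0.05 with a positive interaction and 2.46% with a negative one. The members co-vary, as described further on, so their shared sign is not 7 separate results.

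In the 4 contrasts between groups, all 8 members had a lower fitted level in MILK-NBW than in VEG-NBW piglets, by -0.42 for FOS (-1.22 to 0.39, edgeR adjusted p = 0.854) and by -0.004 to -0.27 for the other 7. This direction did not hold for all 8 under each setting: with all 36 libraries IER2 was at 0.03 and ARC at 0.01, and without the sex term ARC was at 0.01. The members co-vary, as described further on, so their shared direction is not 8 separate results. Over all genes, 4.58% had an unadjusted p under 0.05 downward in MILK-NBW against VEG-NBW and 2.09% upward. The largest difference of any contrast was 0.50 for NR4A3 (-0.29 to 1.28, adjusted p = 0.819), followed by 0.45 for FOS (-0.31 to 1.21, adjusted p = 0.831), both MILK-IUGR against MILK-NBW. These contrasts share the MILK-NBW piglets. None of the 8 tested members was called by edgeR or DESeq2 in any of the 4 contrasts. Nor had any of the 8 an unadjusted p under 0.05 in one, and edgeR called 0% of all genes in each. The share of all genes with an unadjusted p under 0.05 was 6.67% for MILK-NBW against VEG-NBW, 3.9% for MILK-IUGR against VEG-IUGR, 2.29% for VEG-IUGR against VEG-NBW and 6.24% for MILK-IUGR against MILK-NBW. DESeq2 called 2 of all genes in the first and 1 in the last of these.

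No member passed the test between males and females. The male minus female difference ran from -0.05 for FOSB to 0.23 for NR4A3 (-0.35 to 0.82), with 6 of the 8 above 0 (all 8 with all 36 libraries), 0 of the 8 were called by edgeR or DESeq2 or had an unadjusted p under 0.05, and edgeR called 0.163% of all genes, with 2.94% at an unadjusted p under 0.05.

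**Figure D2:**
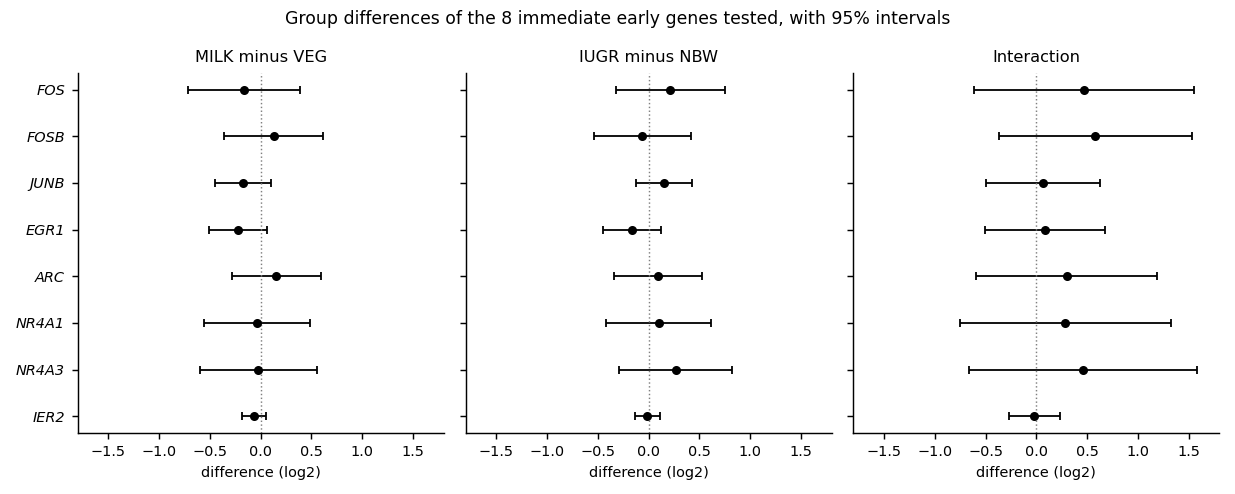
Difference on the log2 scale (points) with its 95% interval (bars) for the 8 immediate early genes tested, for MILK minus VEG, IUGR minus NBW and their interaction, from edgeR over 33 piglets. Every interval includes 0, and those of FOS, NR4A1 and NR4A3 are several times as wide as that of IER2.

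The spread between piglets of the same group was then measured as the SD of log2 CPM once group and sex were removed. It was 0.89 for NR4A3, 0.81 for FOS, 0.79 for NR4A1, 0.68 for FOSB, 0.59 for ARC, 0.44 for EGR1, 0.41 for JUNB and 0.18 for IER2, against a median of 0.21 over all 15356 genes. An SD above 0.5 was found in 5 of the 8 members and in 12.5% of all genes. By percentile of all genes, NR4A3 stood at 98.7, FOS at 98.1, NR4A1 at 97.9, FOSB at 95.8, ARC at 92.6, EGR1 at 83.0, JUNB at 81.1 and IER2 at 38.1. By this SD the family therefore ran from some of the most variable genes of the tissue to a gene that varied less than most.

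Low counts inflate such an SD, so the spread was also set against genes of like abundance. The biological coefficient of variation, the relative SD between piglets beyond counting error, was 0.577 for NR4A3, 0.553 for FOS and 0.533 for NR4A1, which was 3.798, 3.89 and 3.87 times the value fitted for genes of their abundance. A ratio above 2 was found for these 3 of the 8 members and for 2.91% of all genes. JUNB was at 1.91 and EGR1 at 1.81 times the fitted value, FOSB at 1.503, ARC at 1.24 and IER2 at 0.979. The median of this ratio over all genes was 0.825. By this ratio IER2 stood at percentile 66.3 and so varied more than most genes. Counting error made up 0.686% to 5.18% of the variance for FOS, NR4A1, NR4A3, JUNB, EGR1 and IER2, 13.6% for FOSB and 19.9% for ARC.

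**Figure D3:**
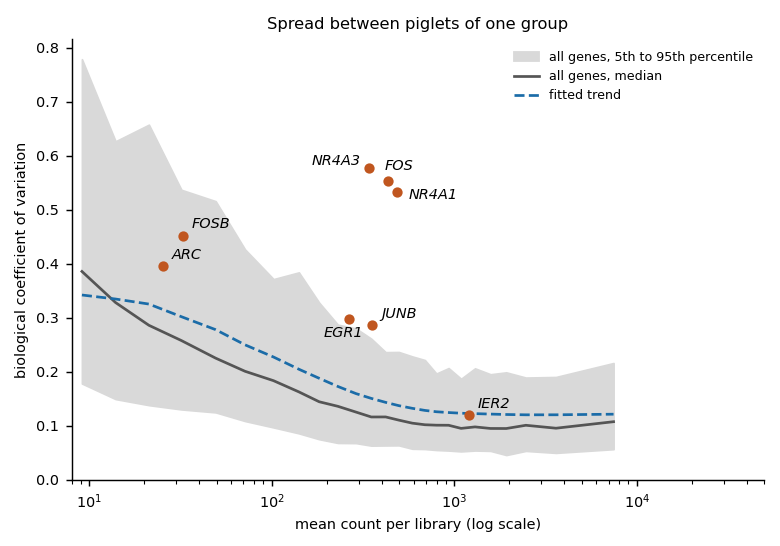
Biological coefficient of variation between piglets (linear axis) against the mean count per library (log axis) for the 8 immediate early genes tested (points), with the 5th to 95th percentile (grey), the median (line) and the fitted trend (dashed) of all 15356 genes. NR4A3, FOS and NR4A1, at 0.533 to 0.577, lie far above the trend, and IER2 lies on it.

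Most of the variation of every member lay within groups. Piglets of the same group and sex accounted for 89.6% (JUNB) to 96.2% (IER2) of the sum of squares of log2 CPM, and the median over all genes was 89.6%. For FOS the shares were 90.2% within groups, 1.90% for diet, 4.01% for birth weight, 3.05% for the interaction and 0.848% for sex. The largest gap between group means was 0.55 for FOS and 0.51 for NR4A3, yet in units of the SD between piglets it was 0.678 and 0.576, and over the 8 members its median was 0.594 against 0.701 over all genes.

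Whether the spread itself differed by diet or birth weight was tested with limma on the absolute deviations from the group medians. No member and 0% of all genes were called for either, and no member had an unadjusted p under 0.05, against 4.83% of genes for diet and 3.07% for birth weight. The mean absolute deviation of NR4A1 was 0.19 larger in MILK than in VEG piglets on the log2 scale (-0.14 to 0.51), and that of IER2 was 0.06 smaller (-0.13 to 0.01). For birth weight the differences ran from -0.16 (ARC) to 0.05 (JUNB).

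The members did not vary independently. Over the 33 piglets, with group and sex removed, the median of Pearson's r over the 28 pairs was 0.49, while over all 117895690 pairs of genes it was -0.002. In 14 of the 28 pairs r was over 0.5, against 3.46% of all gene pairs. Of the 28 pairs, 17 passed an adjusted p of 0.05 (permutation test, two-sided, 100000 permutations, Benjamini-Hochberg over the 28 pairs) by Pearson's r and 17 by Spearman's rho. These p-values describe genes that were listed with their behaviour in these samples already known, and they are not independent evidence.

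The tightest pair was FOS and NR4A1 (r = 0.92, permutation p = 1e-05, adjusted p = 5.6e-05, rho = 0.90, permutation p = 1e-05, adjusted p = 7e-05). It held at 0.93 without the 2 piglets farthest from the median of FOS and at 0.84 in VEG-NBW, 0.95 in VEG-IUGR, 0.95 in MILK-NBW and 0.93 in MILK-IUGR within groups. The AP-1 partners FOS and JUNB followed (r = 0.81, permutation p = 1e-05, adjusted p = 5.6e-05, rho = 0.76, permutation p = 1e-05, adjusted p = 7e-05), with 0.73 without the 2 farthest piglets and 0.66 to 0.90 within groups. The nuclear receptors NR4A1 and NR4A3 went together (r = 0.77, rho = 0.78, both permutation p = 1e-05, adjusted p = 5.6e-05 and 7e-05), with 0.73 without the 2 piglets farthest from the median of NR4A1. The p of 1e-05 is the smallest that 100000 permutations can give.

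FOS further co-varied with NR4A3 (r = 0.75, rho = 0.74), FOSB (r = 0.69, rho = 0.68) and IER2 (r = 0.63, rho = 0.61), and each r was positive in all 4 groups. Without the 2 farthest piglets these r were 0.70, 0.61 and 0.57. For IER2 the permutation p was 0.00011 (adjusted p = 0.000385) by r and 0.0003 (adjusted p = 0.00122) by rho, and for the other two all adjusted p were smaller. IER2 thus followed FOS over a far smaller range in the 33 libraries, but not with all 36 (r = 0.23, permutation test, adjusted p = 0.135). The 36 include piglet 210, in which FOS had no count. IER2 and JUNB, the neighbours on chromosome 2, had r = 0.63 (permutation p = 0.00011, adjusted p = 0.000385) and rho = 0.59 (permutation p = 0.00035, adjusted p = 0.00122), and r within groups was 0.69, 0.63, 0.92 and 0.27. JUNB and NR4A3 had r = 0.34 (permutation p = 0.0498, adjusted p = 0.0775, rho = 0.30, permutation p = 0.0887, adjusted p = 0.138) and did not pass.

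EGR1 went with fewer members in the 33 libraries. Its r with FOS was 0.23 (permutation p = 0.190, adjusted p = 0.231, rho = 0.17, permutation p = 0.330, adjusted p = 0.385), with NR4A1 0.19 and with NR4A3 -0.22 (permutation p = 0.211, adjusted p = 0.246). It went with IER2 (r = 0.52, permutation p = 0.00168, adjusted p = 0.00392, rho = 0.51, permutation p = 0.00281, adjusted p = 0.00605), FOSB (r = 0.51, permutation p = 0.00277, adjusted p = 0.00554, rho = 0.44, permutation p = 0.0107, adjusted p = 0.0177) and JUNB (r = 0.48, permutation p = 0.00541, adjusted p = 0.0101, rho = 0.46, permutation p = 0.00799, adjusted p = 0.0149). With IER2, r was 0.47 without the 2 piglets farthest from the median of EGR1. With FOSB and JUNB it was 0.38 and 0.37 without the 2 piglets farthest from the median of that partner.

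In the 33 libraries ARC passed with a single partner, NR4A3 (r = 0.44, permutation p = 0.0115, adjusted p = 0.0202, rho = 0.49, permutation p = 0.00405, adjusted p = 0.0081). Its r with FOS was 0.24 over all piglets (permutation p = 0.174, adjusted p = 0.231), and within groups it was 0.40 in VEG-NBW, -0.17 in VEG-IUGR, 0.88 in MILK-NBW and -0.45 in MILK-IUGR. These values within groups rest on 8 or 9 piglets each, and the differences between them were not tested.

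Each member was also set against the mean of the other 7. This r was 0.89 for FOS, 0.84 for NR4A1, 0.73 for JUNB, 0.72 for FOSB, 0.66 for IER2, 0.54 for NR4A3, 0.33 for EGR1 and 0.26 for ARC. Within groups the median r over the 28 pairs was 0.54 in VEG-NBW, 0.40 in VEG-IUGR, 0.72 in MILK-NBW and 0.27 in MILK-IUGR. In the same order r was above 0 in 28, 19, 27 and 23 pairs, and the lowest r was 0.04, -0.88, -0.10 and -0.70.

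**Figure D4:**
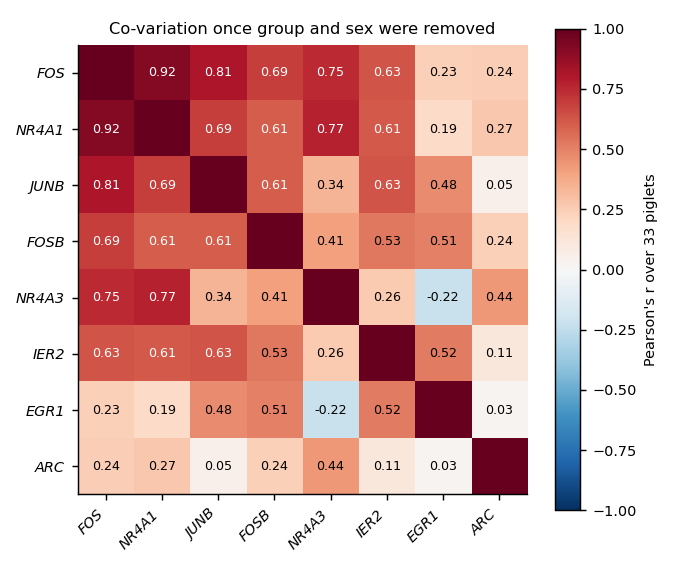
Pearson's r between each pair of the 8 immediate early genes over 33 piglets, with group and sex removed, from -1 (blue) to 1 (red). Pairs among FOS, NR4A1, JUNB, FOSB and IER2 lie between 0.53 and 0.92, NR4A3 is high with FOS (0.75) and NR4A1 (0.77), and ARC has low values with most partners.

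The co-variation could be followed in single piglets. Piglet 224, a MILK-NBW male, was among the 8 highest of 33 for all 8 members and had the highest FOS, FOSB and NR4A1. Piglet 226 of MILK-IUGR had the highest NR4A3 and the second rank for FOS, FOSB and NR4A1. At the other end, piglet 212, a MILK-NBW female, was among the 8 lowest for all 8 members, and piglet 216 of VEG-NBW for 7. Piglet 208 of MILK-NBW was among the 8 lowest for 6. By these ranks, taken with group and sex kept, the piglets at either end for all 8 members came from the same group. Once group and sex were removed, the mean standardised value of the members was highest in piglet 224 (1.75) and lowest in piglet 216 (-1.24). Piglet 223 of VEG-IUGR came second at 1.02, and piglet 212 was at -0.92.

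**Figure D5:**
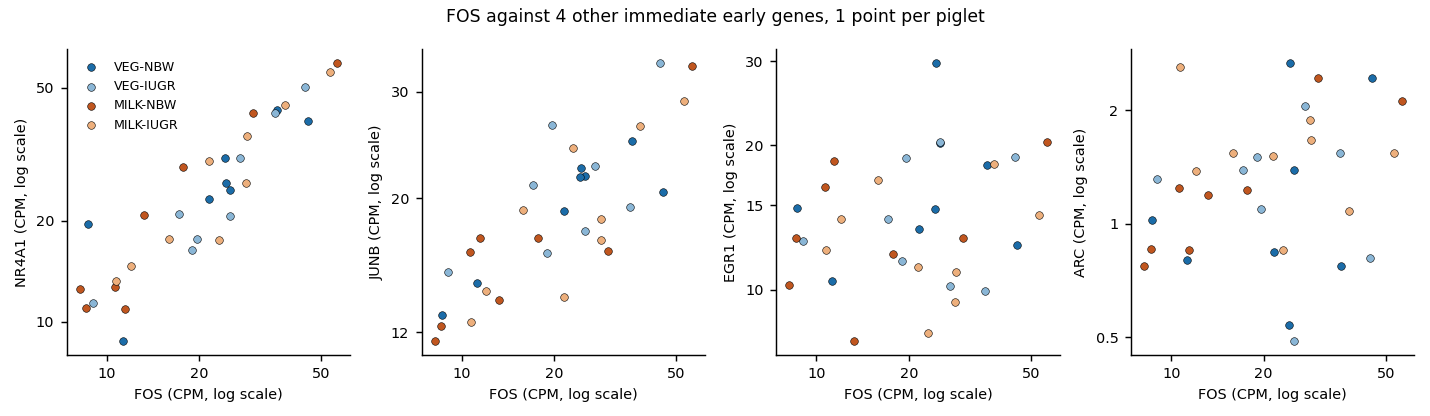
FOS against NR4A1, JUNB, EGR1 and ARC (CPM, log axes), 1 point per piglet and coloured by group. NR4A1 and JUNB rise with FOS over the whole range of 8.16 to 56.3 CPM in piglets of every group, whereas EGR1 and ARC scatter widely at any FOS level.

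Genes outside the list that followed the members were sought by r with the mean of the 8 standardised residuals. Of 15348 other genes, 62 had r over 0.5 (0.404%). This share was below the 3.46% of all gene pairs with r over 0.5, so the number of such genes was not high. The 10 closest were GPR3 (r = 0.82), a constitutively active receptor that raises cyclic AMP in neurons, NR4A2 (0.80), the remaining member of the NR4A receptors, the salt-inducible kinase SIK1 (0.78), the bZIP factor NFIL3 (0.78), the AP-1 subunit FOSL2 (0.69), ENSSSCG00000048432 (0.66), ENSSSCG00000000194 (0.64), ACSM5 (0.64), FAM20B (0.62) and SPRY4 (0.60), an inhibitor of receptor kinase signalling. NR4A2 ranged from 40.4 to 129 CPM and GPR3 from 5.62 to 13.5 CPM over the 33 piglets. The members' mean is computed from the same libraries, so these values are a description.

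Related genes of the pathway were taken from lists. Of 16 other early response transcription factors tested, 4 had r over 0.5: NR4A2, NFIL3, FOSL2 and ATF3 (0.59), with MYC next at 0.42. Of 23 feedback and signalling genes, 4 did: SIK1, the phosphatases DUSP1 (0.60) and DUSP4 (0.51), and TRIB1 (0.55), followed by PPP1R15A at 0.39. Of 17 delayed neuronal activity genes, GPR3 and the activin subunit INHBA (0.53) did, and VGF had 0.47 and the neurotrophin BDNF 0.37. The median r of the 3 lists was 0.37, 0.14 and 0.11, against -0.005 over all genes other than the members. Each list also held genes with a negative r, the lowest being -0.18, -0.33 and -0.24 in the same order.

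The other lists of related genes held no gene with r over 0.5. Lists this short would seldom hold one at the share of 0.404% over all other genes. Median r was 0.07 for upstream kinases and factors, 0.24 for partners of AP-1, EGR and NR4A proteins and -0.01 for glucocorticoid targets. None of 20 upstream kinases and factors had r over 0.5, the highest being MEF2D at 0.32, MAP2K1 at 0.30, ELK4 at 0.29, CAMK4 at 0.24 and MRTFB at 0.18. The strongest relation of that list was negative, for the transcription factor MEF2C at -0.41, which was named after its value was seen. None of 9 partners of AP-1, EGR and NR4A proteins did, with NAB1 at 0.33, MAFG at 0.28, NAB2 at 0.28, RXRA at 0.26 and BATF3 at 0.24. None of 6 glucocorticoid targets did, with SGK1 the highest at 0.26 and FKBP5 the lowest at -0.32. No gene of these 6 lists was called by edgeR for diet, birth weight, the interaction, a contrast between groups or sex.

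The members were finally set against measures of the libraries and of other cell types. The total count, the share of read pairs not assigned, the number of genes detected and the mean level of 10 marker lists gave 104 relations with the 8 members, and none passed an adjusted p of 0.05 by Pearson's r or Spearman's rho. The median r with the total count was 0.03, with the share not assigned -0.02, with granule neuron markers 0.08, with Purkinje cell markers -0.19, with endothelial markers 0.19 and with red blood cell markers -0.16. Single members differed: r ran from -0.36 (IER2, red blood cell markers) to 0.37 (NR4A3, endothelial markers). The lowest rho was -0.47, for EGR1 with Purkinje cell markers and for ARC with microglia markers (permutation test, adjusted p = 0.346 for both). No marker gene of any list had r over 0.5 with the members' mean. Choroid plexus markers varied most, summing to 19.8 to 1645 CPM, and their median r with the members was -0.03. No matched marker was at 0 in all libraries.

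The number of the piglet in the labels was also set against the members. What the number follows is not stated in the labels, and its median was 218.5 in VEG-NBW, 210.0 in VEG-IUGR, 219.5 in MILK-NBW and 226.0 in MILK-IUGR. In a fit with the number as a covariate, chosen after seeing the data, the slope was positive for all 8 members, and 6 had an unadjusted p under 0.05, against 12.9% of all genes (7.10% counted upward alone). The slope per SD of the number was 0.47 on the log2 scale for NR4A1 (0.23 to 0.71, edgeR adjusted p = 0.0757) and 0.42 for FOS (0.15 to 0.68, edgeR adjusted p = 0.151). It was 0.33 for NR4A3, 0.27 for FOSB, 0.16 for JUNB, 0.14 for ARC, 0.09 for EGR1 and 0.07 for IER2. No member passed the adjusted threshold, which 0.189% of all genes did. With the number removed, 16 of the 28 pairs still passed and the median r was 0.45. Its part in the spread was not tested further.

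The 3 libraries left out showed the members differently from the rest. The library of piglet 210 held 7936202 read pairs on genes, with 6513 genes detected against 18635 to 19682 in each of the 33. Most genes seen in the other libraries thus had no count there, so counts of 0 were not particular to the members. In piglet 210 no read pair was counted on 9 of the 10 members, while IER2 had 628 read pairs, or 78.3 CPM. This lay within the 53.8 to 90.9 CPM of the 33 libraries under the same scaling. In piglet 202 JUNB was at 1.61 CPM, IER2 at 26.6 CPM, FOS at 4.91 CPM and NR4A1 at 8.593 CPM, each below all 33, while NR4A3 was at 18.6 CPM. In piglet 213 JUNB was at 6.96 CPM, below the 11.5 CPM of the lowest of the 33, and FOS was at 19.7 CPM. With these libraries included the median r over pairs was 0.73 and the median SD of the members 1.34, against 0.49 and 0.64 without them. The 7 tested members other than IER2 were all at 0 in piglet 210, and that library enters each of these values. Its part in them was not tested, and r and SD over all genes were not computed for the 36. The pairs that passed also changed: IER2 passed with none of the other 7 members, EGR1 with 6, FOS (r = 0.83) and NR4A1 (r = 0.83) among them, and ARC with 6. Of the 17 pairs that passed in the 33 libraries 12 also passed in all 36, 5 did not, and 9 others did.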

How the data were processed

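The authors deposited 1 table per piglet (36 in all) that gives unnormalised counts, the read pairs on each Ensembl gene of the pig. The submitters' processing notes name Trim Galore, HISAT2, HTSeq and DESeq2 and the build Sscrofa11.1. The annotation release and strand setting are not given in the sources used here. Symbols were matched for 15029 of 31907 identifiers, and coordinates were taken from RefSeq of that build.

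Because of low RNA integrity the study dropped 3 libraries, which it does not name. Here piglets 202, 210 and 213 were left out because their share of unassigned read pairs (31.5% to 64.3%, against 26.7% to 30.5% in the rest) stood apart by Dixon's rule (0.493 for 9 piglets), and all 36 were used as an alternative. Total counts of 15516541 or more per library leave little counting error except for FOSB, ARC, EGR2 and EGR3. Each library is a separate piglet, and p-values take litter mates as independent.

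Counts were tested with edgeR 4.0.16 (R 4.3.3, TMM, filterByExpr with a minimum count of 10, quasi-likelihood test, Benjamini-Hochberg over all genes). Each model held a term for sex. The main effects of both factors were fitted together, and the interaction and contrasts in a model of 4 group means. DESeq2 1.42.0, other scaling, no filter and no sex term were alternatives. Spread was tested with limma 3.58.1. Correlations used log2 CPM (prior count of 2) with group and sex removed (28 residual degrees of freedom) and 100000 permutations. Scripts were tested on simulated data. Members, lists and tests were chosen with earlier results of these data known. All 10 members were named, of each related list up to 5 genes with the highest r and any gene called, and the 10 genes most like the members. 1 gene that this rule names is not reported here.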

Additional observations from a re-analysis of the deposited data

Results flagged for a closer look

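In 40 sets of values (10 genes in 4 groups), the highest or lowest piglet stood apart from the others of its group in 6, by a gap to its neighbour that was large against the range of the group (Dixon's 95% value). For normally distributed values chance alone flags about 1 in 20 groups. The rule was applied to CPM that were not log-transformed, and all 6 flags were the highest piglet of a group. The rate to expect by chance here is therefore not known, and 6 cannot be read as an excess. The sets are also not independent since the genes co-vary.

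2 of the 6 came from piglet 224 of MILK-NBW. FOS was at 56.3 CPM there, against 29.995 CPM in the next piglet, and JUNB at 33.2 CPM, against 17.2 CPM. Without this piglet the median r over the 28 pairs of members was 0.42.

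The other 4 were EGR2, each time the highest piglet of a group: 1.38 CPM in piglet 222 of VEG-NBW, 0.580 CPM in piglet 223 of VEG-IUGR, 1.04 CPM in piglet 234 of MILK-NBW and 1.02 CPM in piglet 232 of MILK-IUGR. These are 29, 10, 17 and 18 read pairs. No gene was called for the interaction, so no difference between groups is listed here.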

How the results depend on the processing

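No member was called in any of the 8 comparisons by diet, birth weight, interaction, contrast or sex under any alternative that gave a value: all 36 libraries, DESeq2, no sex term (not for sex), DESeq2 size factors, no filter on low counts or the piglet number as a covariate (the last chosen after seeing the data). Nor was any for a difference in spread with all 36. With all 36 libraries, piglet 210 and its 0 counts among them, the median r over pairs was 0.729 and the median SD 1.34. 21 pairs then passed, of which 12 were among the 17 of the 33 libraries, and IER2 passed with no partner. With Spearman's rho, group and sex kept, DESeq2 size factors or the unassigned share removed the same 17 pairs passed, with the piglet number removed 16 of them, and leaving out each piglet in turn gave 16 to 18 pairs and a median r of 0.422 to 0.515. A few small differences changed sign: with all 36 libraries the diet difference was 0.047 for NR4A1 and 0.021 for NR4A3 and the birth weight difference of IER2 0.056, the MILK-NBW minus VEG-NBW difference was 0.014 for ARC and 0.031 for IER2, and the sex difference 0.033 for FOSB and 0.090 for EGR1. Without the sex term the diet difference of NR4A3 was 0.030 and the MILK-NBW minus VEG-NBW difference of ARC 0.0145, and with the piglet number the diet difference of FOSB was -0.103 and the interaction of JUNB -0.034 and of NR4A1 -0.056 and the sex difference of IER2 -0.00089. The number also moved the diet differences of FOS to -0.49, NR4A1 to -0.42 and NR4A3 to -0.34 and the interaction of FOS to 0.17. The causes were not tested. No paired analysis was possible because each library is a separate piglet and the labels do not give the litter. For EGR2, EGR3, ARC and FOSB the counts limit what could be seen.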
